A study of Nothobranchius furzeri with 9 samples.

Results

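The sarcoplasmic reticulum is the calcium store of the muscle fibre, and the genes described here encode its release channels, the proteins that hold the store against the surface membrane, the pumps that refill it and the proteins that buffer calcium inside it and in the cytosol. Members were picked by gene name, and the names were chosen with earlier results of these data known. They are RYR1, RYR3, ATP2A1, ATP2A2, CASQ1, CASQ2, JPH1, JPH2 and TRDN, also where the name ends in A or B, and every name that starts with PVALB. By this rule 37 of the 39396 entries of the expression table are members. An entry is 1 gene identifier of the annotation, entries that share a name were kept apart, and the number after a name in the text is that identifier. RYR3 had 9 entries, RYR1 6, PVALB 5, ATP2A2 4, CASQ2 3, and ATP2A1, CASQ1, JPH1, JPH2 and TRDN 2 each. The labels and methods do not state whether entries of 1 name are separate gene copies or pieces of 1 gene model.

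Whole skeletal muscle of male turquoise killifish, *Nothobranchius furzeri* (*Nfu*), of the strain MZM-04/10 was sequenced at 3 ages. Young fish are marked as 5 weeks old, adults as 20 weeks and old animals as 35 weeks, with 3 fish and 1 library per fish in each group. No group received a treatment or carries an altered gene, and the muscle was not separated into fibre types or regions. Values are the authors' normalized read counts, that is, whole numbers obtained from the reads of each entry after scaling a library by its size factor.

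When a fibre is excited, the voltage sensor of the transverse tubule opens the ryanodine receptors, and calcium leaves the reticulum and starts contraction. Relaxation follows as the SERCA pumps, encoded by the ATP2A genes, return calcium to the lumen, where calsequestrin binds it. Fish white muscle is known for its very high content of parvalbumin, a soluble buffer that takes up calcium in the cytosol. Fish carry RYR1 and RYR3 in skeletal muscle, and in fish RYR1A and RYR1B are known as the forms of slow and of fast fibres.

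The libraries held 9.4 to 14.41 M normalized counts, and the gaps between low values put the reads on genes behind them at 7.96 to 14.24 M. The fibre genes CKMB, MYLPFA, TNNI2, DES and TTN each had an abundant entry. In the same muscle marker list MB 511060 was low (9 to 110 normalized counts) and CKMA 145312 had 0 in each library. Of its 17 entries 5 were too low to be tested, and 0 of the 12 tested were called between any ages (limma). In adult compared to young muscle 10.7% of all tested entries were called higher and 11.4% lower. Adult replicate 2 was often the lowest library among the members. It had the lowest value of the 9 libraries for 14 of 30 tested member entries (46.7%), against 11.6% of all 17454 tested entries. It also had the smallest library total. Some of the 14 minima were narrow, as for CASQ2 306168 (410, next lowest 416) and RYR1B 165884 (30055, next lowest 30663). Others were wide, as for PVALB4 455338 (113030, next lowest 166103) and RYR3 332368 (23619, next lowest 32190). Old replicate 1 was the lowest library for 6 of the 30 (20%) and for 9 of 16 tested entries of the slow muscle marker list (56.2%), against 11% of all tested entries.

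A value was compared as log2(value + 1) with limma, and an entry was tested where its mean over the 9 libraries was at least 5. Calls needed 2 things, a p of at most 0.05 after Benjamini-Hochberg adjustment over all 17454 tested entries, and a log2 fold change that reached 1 in either direction. Of the 37 member entries 30 were tested. With 3 fish per age an exact permutation test of a single entry cannot go below p = 0.1 (two-sided), so calls rest on variances shared across entries, and p-values measure only the spread between these fish.

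In adult compared to young muscle 4 member entries were called. ATP2A1 729165 was higher, and ATP2A2 859223, RYR3 18846 and RYR3 502559 were lower. The 1 higher entry is 3.33% of the members tested, where 10.7% of all tested entries were called higher, and the 3 lower ones are 10%, where 11.4% were called lower. In old compared to young muscle TRDN 593671 was higher and RYR3 502559 lower. These are 3.33% in each direction, against 7.91% called higher and 9.84% called lower among all tested entries. In old compared to adult muscle RYR3 18846 was higher and 0 members were called lower, against 0.825% and 1.26%. At an unadjusted p of at most 0.05 (limma) there were 8 of the 30 tested member entries in that comparison, against 3554 of all 17454 tested entries. The shares called between young and the other ages were thus close to or below the background, and each share, that of old compared to adult included, rests on 3 entries or fewer.

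The 3 fish of 1 age did not overlap the 3 of the other for 8 member entries in adult and young muscle (26.7%, against 50.2% of all tested entries), 11 in old and young (36.7%, against 42%) and 5 in old and adult muscle (16.7%, against 21%). The median log2 fold change of the 30 entries was 0.15 for adult compared to young, 0.30 for old compared to young and 0.16 for old compared to adult muscle. Over all tested entries it was -0.0045, -0.03 and -0.01, and over the 12 tested entries of the muscle marker list 0.15, 0.21 and 0.21. The medians of the members were thus not particular to them. Scaling every library to the same total moved the median of all entries to -0.11, -0.29 and -0.17, and then 0 members were called higher and 3 lower in adult compared to young, and 0 higher and 2 lower in old compared to young muscle. Counts also depended on single fish. Without adult replicate 3 the number of members called in adult compared to young muscle was 2, as ATP2A1 729165 and RYR3 502559 were lost. Without young replicate 3 that of old compared to young was 4, with ATP2A2 859223 and RYR3 18846 added, and without adult replicate 1 that of old compared to adult was 2, with RYR1A 717985 added. In bulk muscle fewer cells of a type and less RNA per cell cannot be told apart.

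**Figure D1:**
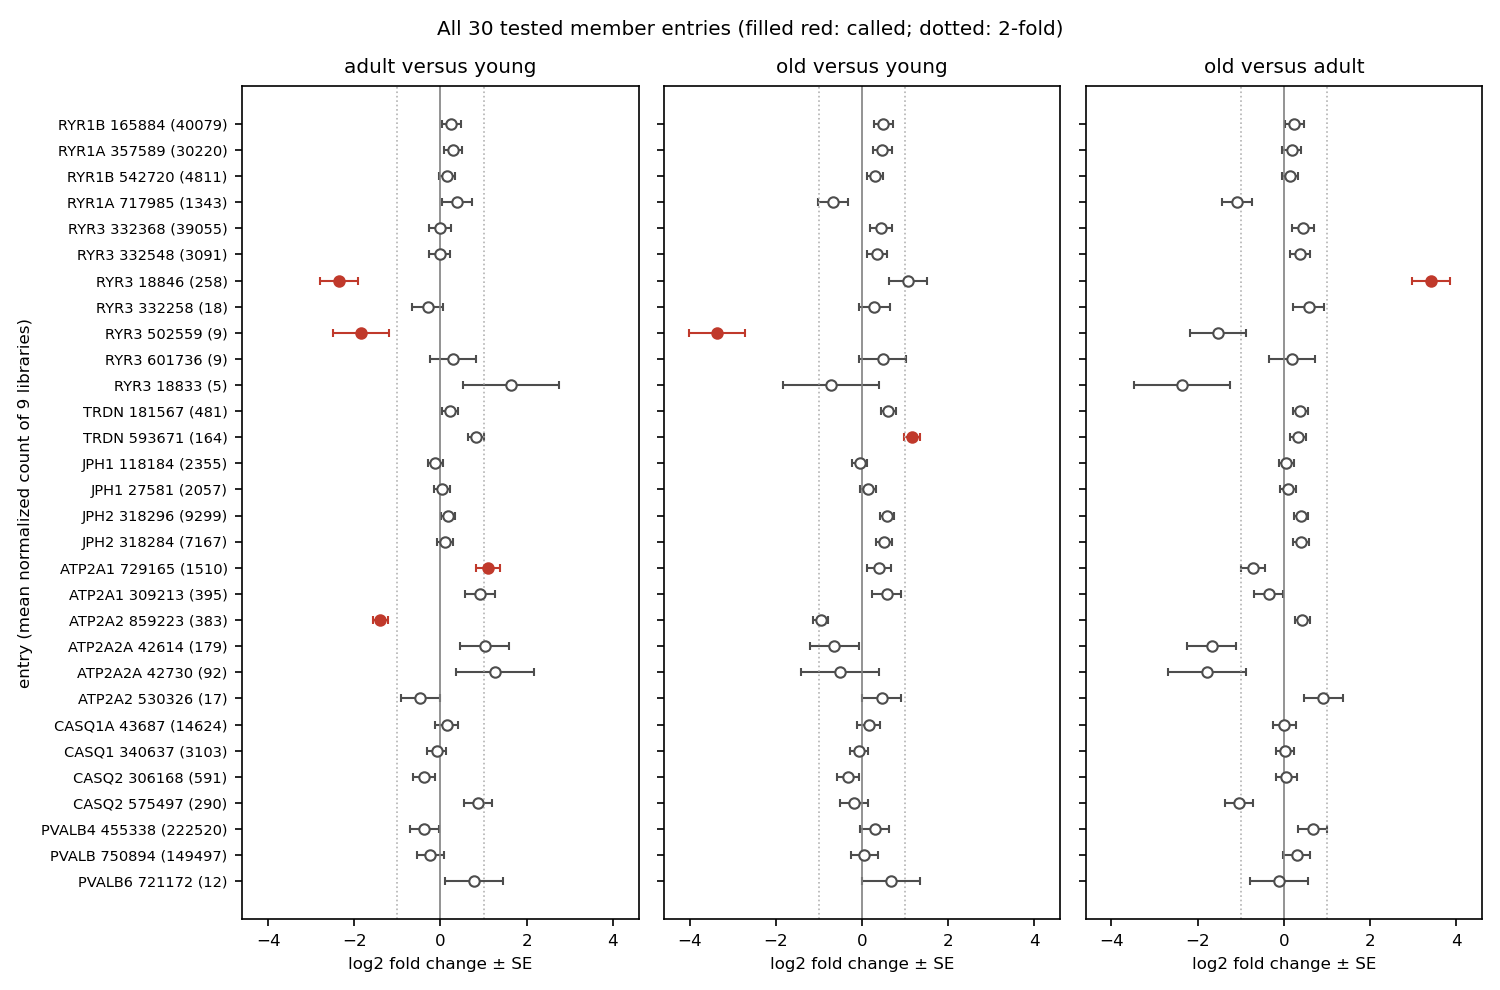
Log2 fold change with its standard error (limma, n = 3 fish per age) for the 30 tested member entries in the 3 comparisons, with the mean normalized count of each entry in brackets, filled red points for called entries and dotted lines at a 2-fold change. Most entries lie within 2-fold of 0, and the 5 entries called in at least 1 comparison belong to RYR3, TRDN, ATP2A1 and ATP2A2.

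Most of the ryanodine receptor signal came from 3 entries. RYR1B 165884, the most abundant RYR1 entry, had 30663, 31922 and 37400 normalized counts in the young, 49478, 30055 and 41250 in the adults and 43813, 47175 and 48956 in old fish. All 3 old fish were above all young fish, and the adult fish covered both ranges. The log2 fold change of old compared to young was 0.49 ± 0.22 (SE, adjusted p = 0.121, limma), so it did not pass the test. RYR1A 357589 had 22110, 24461 and 28734 normalized counts in the young, 37671, 23297 and 32181 in the adults and 32118, 35836 and 35572 in old fish. It followed RYR1B closely, with a ratio of RYR1A 357589 to RYR1B 165884 between 0.721 and 0.780 in all 9 libraries.

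RYR3 332368 was the most abundant RYR3 entry. Its normalized counts were 32190, 32687 and 39261 in the young, 45462, 23619 and 37496 in the adults and 44507, 54588 and 41683 in old fish. Old fish were again all above young fish, with a log2 fold change of 0.43 ± 0.25 (SE, adjusted p = 0.229, limma), and adult replicate 2 was the lowest of the 9. The ratio of RYR3 332368 to RYR1B 165884 was 1.02 to 1.05 in the young, 0.786 to 0.919 in the adults and 0.851 to 1.16 in old fish. The young fish lay closely together and above the 3 adult fish, while the old fish spanned both. These are ratios of normalized counts within a library and say nothing of molecules per gene, since lengths of the entries were not used here.

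Further entries of the same names moved with these abundant ones. RYR3 332548 had 0.070 to 0.082 of the normalized counts of RYR3 332368, and RYR1B 542720 had 0.103 to 0.138 of those of RYR1B 165884. RYR1A 717985 did not keep such a ratio. It had 1270, 1225 and 1456 normalized counts in the young, 1011, 2223 and 2284 in the adults and 479, 968 and 1168 in old fish, and its ratio to RYR1A 357589 ran from 0.0149 in old replicate 1 to 0.0954 in adult replicate 2. All 3 old fish were below all young fish for RYR1A 717985, with a log2 fold change of -0.69 ± 0.35 (SE, adjusted p = 0.164, limma), and it was -1.08 ± 0.35 for old compared to adult muscle (adjusted p = 0.116). Neither comparison was called with all 9 libraries, and RYR1A 717985 is given in full because of its values.

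The strongest change among the members was that of RYR3 18846, a low entry of the same receptor name. It had 169, 160 and 373 normalized counts in the young, 72, 30 and 33 in the adults and 283, 791 and 407 in old fish. All adult fish were below all young and all old fish, and young and old fish overlapped. It fell in adult compared to young muscle by 2.35 ± 0.44 on the log2 scale (SE, adjusted p = 0.0021, limma) and was higher in old compared to adult muscle by 3.41 ± 0.44 (adjusted p = 0.0040). For old compared to young it was 1.05 ± 0.44 (adjusted p = 0.0952), and without young replicate 3 it was 1.45 with an adjusted p of 0.0498. As a share of RYR3 332368 in the same library it ran from 0.00088 to 0.00158 in adult fish, from 0.00489 to 0.0095 in young and from 0.00636 to 0.0145 in old fish. Both calls held without adult replicate 2, at -2.12 and 3.18. The abundant RYR3 entries were not called in any comparison.

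RYR3 502559 was a very low entry, with 11, 28 and 24 normalized counts in the young, 2, 6 and 8 in the adults and 3, 1 and 0 in old fish. The young fish were all above the adult and old fish. Its mean was 21 in the young, 5.33 in the adults and 1.33 in old fish. It reached the mean of 5 over the 9 libraries only through the young fish, so the direction of its calls was not independent of that limit. The entry fell by 1.84 ± 0.65 on the log2 scale in adult compared to young (SE, adjusted p = 0.0483, limma) and by 3.36 ± 0.65 in old compared to young muscle (adjusted p = 0.0038), and fitted changes at such counts depend on the added constant. The summed normalized counts of young and old fish were 63 and 4, a ratio of 15.8. Its binomial 95% interval of 5.86 to 59.6 treats normalized counts as reads, so it is approximate, and it covers counting error only. The call of adult compared to young was lost without young replicate 2 (adjusted p = 0.164), young replicate 3 (0.145) or any one of the adult fish (0.0528 to 0.160).

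A pair of RYR3 entries with a mean under 5 had the same order. RYR3 45649 had 8, 16 and 11 normalized counts in the young, 0 in each adult fish and 0, 1 and 0 in old fish, so that it was at least 3.89-fold lower in adult compared to young muscle if each adult library is put at a floor of 3. RYR3 322340 had 2, 8 and 7 in the young, 1, 1 and 0 in the adults and 0 in each old fish. They were not tested, and nor were RYR1 307858 (at most 2 in any library) and RYR1A 546958 (9, 8 and 2 in the young, 0 in each adult and 0, 3 and 1 in old fish). The 3 other low RYR3 entries, 332258, 601736 and 18833, had means of 17.8, 8.56 and 5.22 and were not called in any comparison.

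The neuron and glia marker list moved in the same direction as RYR3 502559. Of its 13 tested entries 8 were called lower in the adults and 9 in old compared to young muscle. The shares of all tested entries called lower were 11.4% and 9.84%. GFAP 140286, a glial filament, had 180, 898 and 570 normalized counts in young fish, 5, 0 and 1 in the adults and 1, 3 and 0 in old fish. The neurofilament entry NEFMA 199420 had 294, 1039 and 768 in the young, 0, 7 and 7 in the adults and 2, 1 and 4 in old fish. GFAP 140286, NEFMA 199420, NEFLA 199366, ELAVL4 201678 and STMN2B 554129 reached the mean of 5 over the 9 libraries only through the young fish. Near that limit outside the young were NEFLB 467278 (means of 7 in adult and 2.33 in old fish) and STMN2 180951 (3.33 and 5). The direction of most calls in this list was thus not independent of the limit. The sum over the 18 entries of the list was 3273 to 7901 in the young, 2821 to 3557 in the adults and 3196 to 4072 in old fish. Young replicate 2 was the highest library for 10 of the 13 tested marker entries and also for RYR3 502559, 45649 and 322340. RYR3 is known from mammals to be expressed in brain as well as in muscle. Whether the neural markers had a part in the low RYR3 entries was not tested.

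**Figure D2:**
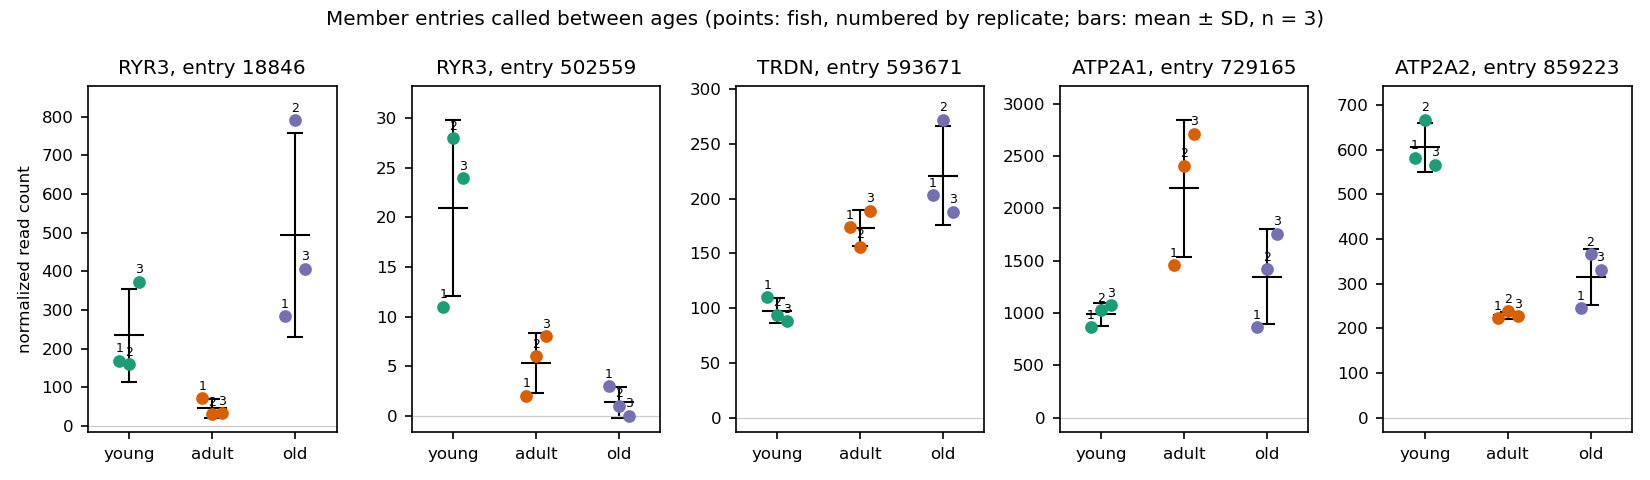
Normalized read counts of the 5 called member entries in each fish (points with the replicate number) with the mean and SD of 3 fish per age, on linear axes. RYR3 18846 was lowest in adult fish (30 to 72), RYR3 502559 was highest in young fish (11 to 28), and ATP2A2 859223 was highest in young fish (566 to 667).

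Triadin, encoded by TRDN, is the membrane protein of the reticulum that ties calsequestrin to the ryanodine receptor. TRDN 593671 had 110, 94 and 88 normalized counts in the young, 174, 156 and 189 in the adults and 203, 272 and 188 in old fish. All young fish were below all adult and old fish, and adult and old fish overlapped. The entry was called higher in old compared to young muscle at 1.16 ± 0.19 on the log2 scale (SE, adjusted p = 0.0014, limma). With equal library totals it was 0.89, below the 2-fold limit, which is 1.18 relative to the shift of all entries. In adult compared to young muscle it was 0.83 ± 0.19 (adjusted p = 0.0062), short of the 2-fold limit.

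TRDN 181567, the more abundant TRDN entry, had 400, 365 and 399 normalized counts in the young, 580, 359 and 445 in the adults and 659, 528 and 596 in old fish. The old fish were all above the young ones, with a log2 fold change of 0.61 ± 0.18 (SE, adjusted p = 0.0289, limma) that is under the 2-fold limit. Both TRDN entries thus had their highest mean in old fish. The ratio of TRDN 593671 to TRDN 181567 was 0.221 to 0.275 in the young, 0.30 to 0.435 in the adults and 0.308 to 0.515 in old fish, so that no adult or old fish fell into the range of the young.

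Junctophilins hold the reticulum against the transverse tubule. JPH2 318296 had 7074, 7786 and 8206 normalized counts in the young, 10527, 7301 and 8453 in the adults and 11529, 11567 and 11247 in old fish. The old fish lay within a narrow range above all other fish. The log2 fold change of old compared to young muscle was 0.58 ± 0.17 (SE, adjusted p = 0.0268, limma), under the 2-fold limit, and that of old compared to adult was 0.40 ± 0.17 (adjusted p = 0.209). With equal library totals old compared to young muscle was 0.30 (adjusted p = 0.169), which is 0.59 relative to the shift of all entries. The other JPH2 entry, 318284, was 0.51 ± 0.19 (adjusted p = 0.0633) in old compared to young muscle.

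JPH1 118184 had 2300, 2669 and 2351 normalized counts in the young, 2220, 1866 and 2716 in the adults and 2393, 2706 and 1971 in old fish. The ages overlapped throughout, and the log2 fold changes were -0.12, -0.06 and 0.06 with a standard error of 0.18 each. JPH1 27581 was between 0.04 and 0.14. The JPH1 and JPH2 entries were not compared with each other by a test.

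Of the SERCA pump entries, ATP2A1 729165 was called higher and ATP2A2 859223 lower in adult compared to young muscle. The other entries of these 2 names were not called, and they did not all move with the called one. ATP2A1 encodes SERCA1, the pump of fast fibres in mammals, and ATP2A2 encodes SERCA2, the pump of slow fibres and of the heart, which in a second form serves as the pump of most other cells. ATP2A1 729165 had 866, 1026 and 1073 normalized counts in the young, 1458, 2407 and 2715 in the adults and 864, 1419 and 1759 in old fish. All adult fish were above all young fish, and the old fish reached from the young into the adult range. The entry was called higher in adult compared to young muscle, at 1.11 ± 0.28 on the log2 scale (SE, adjusted p = 0.010, limma). It was 0.39 ± 0.28 (adjusted p = 0.313) for old compared to young and -0.71 ± 0.28 (adjusted p = 0.172) for old compared to adult muscle.

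The call of ATP2A1 729165 lay close to the 2-fold limit. Without adult replicate 3 it was 0.93 (adjusted p = 0.0435), and with equal library totals 0.99, which is 1.11 relative to the shift of all entries. ATP2A1 309213 kept 0.215 to 0.331 of its normalized counts and was 0.92 ± 0.34 in adult compared to young muscle (adjusted p = 0.0569). An entry with a related name, ATP2A1L 908364, lies outside the rule. It had 149507, 149092 and 161851 normalized counts in the young, 226622, 162796 and 224185 in the adults and 268035, 247726 and 209755 in old fish. All young fish were below all adult and old fish, but with log2 fold changes of 0.40 ± 0.27 (adjusted p = 0.282) and 0.65 ± 0.27 (adjusted p = 0.0949) neither comparison with young was called. The mean of ATP2A1L 908364 over the 9 libraries was 199952 normalized counts, against 1510 for ATP2A1 729165, so the called entry was by far the less abundant. ATP2A1L was singled out after its values were seen.

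ATP2A2 859223 had the smallest p of the members over the 3 ages together (F test of limma, adjusted p = 4.5e-04). Its normalized counts were 582, 667 and 566 in the young, 223, 238 and 227 in the adults and 245, 366 and 331 in old fish. The 3 ages did not overlap, with young fish highest and adult fish lowest. It fell by 1.39 ± 0.17 on the log2 scale in adult compared to young muscle (SE, adjusted p = 1.9e-04, limma). In old compared to young muscle it was -0.96 ± 0.17 (adjusted p = 0.0024), just short of the 2-fold limit. With equal library totals it passed that limit (-1.24), and it did so too when young replicate 3 was left out (-1.01), as well as old replicate 2 (-1.08) or 3 (-1.01). For old compared to adult it was 0.43 ± 0.17 (adjusted p = 0.182). MYH6 202270, a heavy chain entry of the slow and cardiac marker list, was likewise called lower in adult and in old compared to young muscle, the 1 entry of that list called lower. Of its 16 tested entries 4 were called higher in adult and 2 in old compared to young muscle. The shares of all tested entries called higher were 10.7% and 7.91%, and those called lower 11.4% and 9.84%. Called higher in both comparisons were the troponin C entry TNNC1 227064 (1.99 and 1.51 on the log2 scale) and the troponin T entry TNNT2 547110 (2.62 and 1.65). MYH6 202270 had 81654, 84930 and 115913 normalized counts in the young, 14506, 15341 and 21000 in the adults and 13180, 10878 and 21712 in old fish. The sum over the 20 entries of that list was 179803 to 231525 in the young, 90250 to 144745 in the adults and 99958 to 145664 in old fish. Most of this fall was in MYH6 202270, with means of 94166, 16949 and 15257 in young, adult and old fish. The other abundant entry, MYH7 815926, had means of 103883, 96667 and 94909. The median log2 fold change of the 16 tested entries was 0.86 in adult and -0.64 in old compared to young muscle. The part of that list in the level of ATP2A2 859223 was not tested.

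The other ATP2A2 entries did not follow 859223. ATP2A2A 42614 had 126, 104 and 159 normalized counts in the young, 164, 547 and 200 in the adults and 31, 94 and 182 in old fish, and ATP2A2A 42730 had 52, 37 and 72 in the young, 69, 306 and 95 in the adults and 5, 70 and 118 in old fish. Adult replicate 2 was the highest and old replicate 1 the lowest library for both. Their log2 fold changes were 1.03 ± 0.57 and 1.27 ± 0.91 for adult compared to young and -1.68 ± 0.57 and -1.78 ± 0.91 for old compared to adult muscle, with adjusted p from 0.129 to 0.306. ATP2A2 530326 had a mean of 17.1 and was not called.

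The sum over the 4 ATP2A2 entries was 770 to 825 in the young, 474 to 1103 in the adults and 298 to 648 in old fish. The old fish were all below the young fish in this sum. The adult fish were on both sides of the young ones, because adult replicate 2 was high in the ATP2A2A entries. Sums are given without a test.

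Old replicate 1 was the lowest library for 6 member entries, namely RYR1A 717985, ATP2A1 729165, ATP2A1 309213, ATP2A2A 42614, ATP2A2A 42730 and CASQ2 575497. These 6 were brought together after their values were seen. The minima of the 2 ATP2A1 entries were narrow, at 864 (next lowest 866) for 729165 and 213 (next lowest 221) for 309213, just below the lowest young fish. Several entries of the slow marker list had their minimum in the same fish. MYL2B 824304, a slow and cardiac light chain, had 217, 210 and 349 normalized counts in the young, 611, 1125 and 396 in the adults and 33, 283 and 677 in old fish, and MYH7 377925 had 716, 345 and 671 in the young, 1129, 1826 and 1254 in the adults and 36, 814 and 1212 in old fish. Adult replicate 2 was the highest library for 7 of the 16 tested slow marker entries. The most abundant slow heavy chain entry, MYH7 815926, did not show this profile, with 84673 in old replicate 1 and 62257, its lowest value, in adult replicate 2. Without old replicate 1 the log2 fold changes of old compared to adult muscle went from -1.08 to -0.70 for RYR1A 717985, from -1.05 to -0.62 for CASQ2 575497 and from -1.68 to -0.996 for ATP2A2A 42614. None of the 6 entries was called in old compared to young or adult muscle, with or without old replicate 1. The part of the slow marker genes in these entries was not tested.

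**Figure D3:**
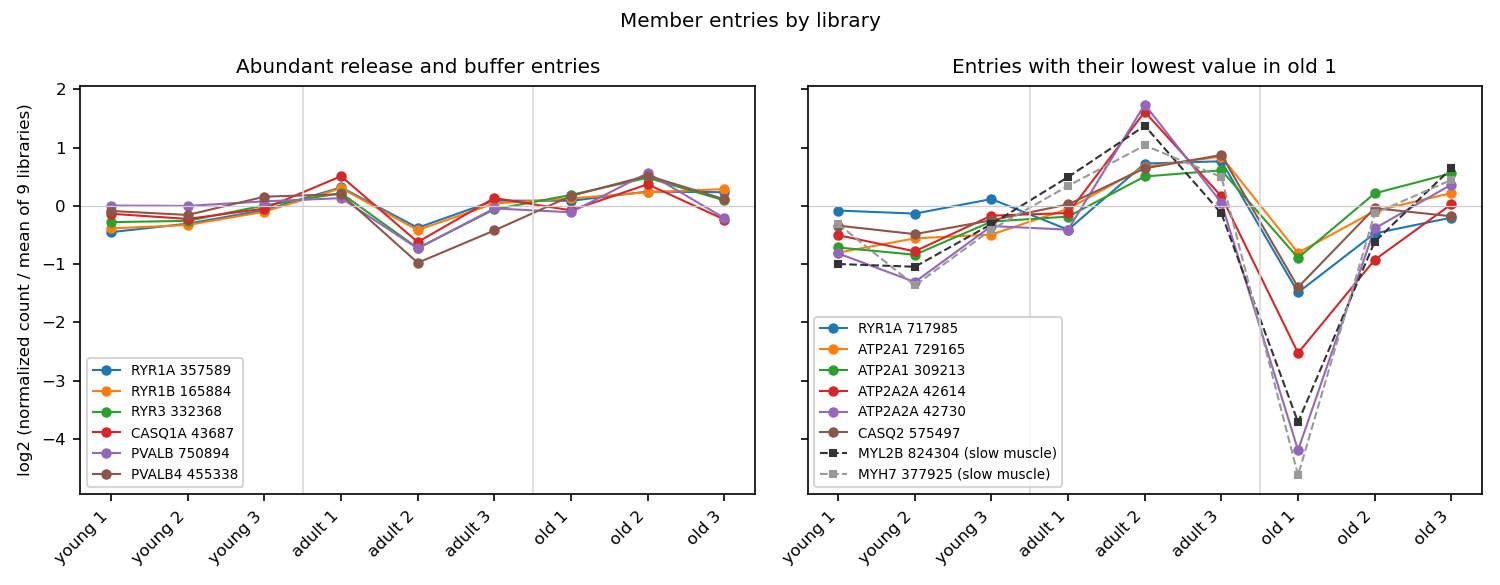
Log2 of the normalized count of an entry over its own mean of 9 libraries, for 6 abundant release and buffer entries (left) and for the 6 member entries with their lowest value in old replicate 1 (right), with MYL2B 824304 and MYH7 377925 of the slow muscle list as dashed lines. The abundant entries dip in adult replicate 2, where the entries of the right panel are high. In old replicate 1 the dashed lines and the member entries of the right panel are at their lowest, the 2 ATP2A1 entries only just below the lowest young fish.

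Calsequestrin is the calcium-binding protein of the lumen, CASQ1 being the form of fast and CASQ2 that of slow and heart muscle in mammals. CASQ1A 43687 had 13318, 12522 and 14165 normalized counts in the young, 20827, 9509 and 16060 in the adults and 13869, 18912 and 12435 in old fish. The ages overlapped, and adult fish had both the highest and the lowest value. The log2 fold changes were 0.14, 0.16 and 0.01 with a standard error of 0.27 each (adjusted p from 0.703 to 0.985, limma). Without adult replicate 2, adult compared to young muscle was 0.46 (adjusted p = 0.145). CASQ1 340637 ranged from 2269 to 3817 with log2 fold changes between -0.09 and 0.02.

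CASQ2 306168 had 822, 476 and 789 normalized counts in the young, 634, 410 and 537 in the adults and 567, 669 and 416 in old fish. The ages overlapped, and its log2 fold changes were -0.38, -0.32 and 0.06 with a standard error of 0.25 each. CASQ2 575497 had 229, 207 and 244 in the young, 295, 453 and 531 in the adults and 110, 282 and 256 in old fish. The adult fish were above all others, with 0.87 ± 0.32 on the log2 scale for adult compared to young (adjusted p = 0.0589) and -1.05 ± 0.32 for old compared to adult muscle (adjusted p = 0.105), neither of them called. The ratio of CASQ2 575497 to CASQ2 306168 was 0.279 to 0.435 in the young, 0.465 to 1.10 in the adults and 0.194 to 0.615 in old fish, so that the adult fish had the higher ratios except for 1 old fish that fell into their range. CASQ2 256166 had at most 3 normalized counts in a library and was not tested.

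Parvalbumin entries took the largest share of the libraries among the members. PVALB4 455338 had 209503, 199734 and 248340 normalized counts in the young, 255694, 113030 and 166103 in the adults and 250489, 318877 and 240910 in old fish. Adult replicate 2 was far below the other fish, and adult replicate 1 was within the range of the old. The log2 fold change was -0.37 ± 0.33 (SE, adjusted p = 0.420, limma) for adult compared to young, 0.30 ± 0.33 (adjusted p = 0.543) for old compared to young and 0.67 ± 0.33 (adjusted p = 0.286) for old compared to adult muscle. Without adult replicate 2 the first was -0.08 and the last 0.38.

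PVALB 750894 had 150119, 149466 and 157797 normalized counts in the young, 163982, 90080 and 145064 in the adults and 138537, 221149 and 129282 in old fish. The young fish lay closely together, while adult and old fish spread to both sides of them. The log2 fold changes were -0.24, 0.05 and 0.30 with a standard error of 0.31 each. PVALB6 721172 was low, with 4, 4 and 19 in the young, 24, 5 and 16 in the adults and 17, 15 and 6 in old fish, and was not called either. PVALB8 750762 and PVALB9 455391 had at most 1 and 6 normalized counts in a library and were not tested.

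Summed over the 5 entries, parvalbumin took 3.41 to 3.56% of all normalized counts in the young, 2.16 to 3.2% in the adults and 3.01 to 3.75% in old fish. All adult fish were below all young fish in this share, and old fish overlapped with both. Read in normalized counts, which are not divided by the library total, adult replicate 1 was above all young fish with 419700, against 349207 to 406157. Whether adult and young fish separated in parvalbumin thus depended on the scale. The ratio of PVALB 750894 to PVALB4 455338 was 0.635 to 0.748 in the young, 0.641 to 0.873 in the adults and 0.537 to 0.694 in old fish.

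**Figure D4:**
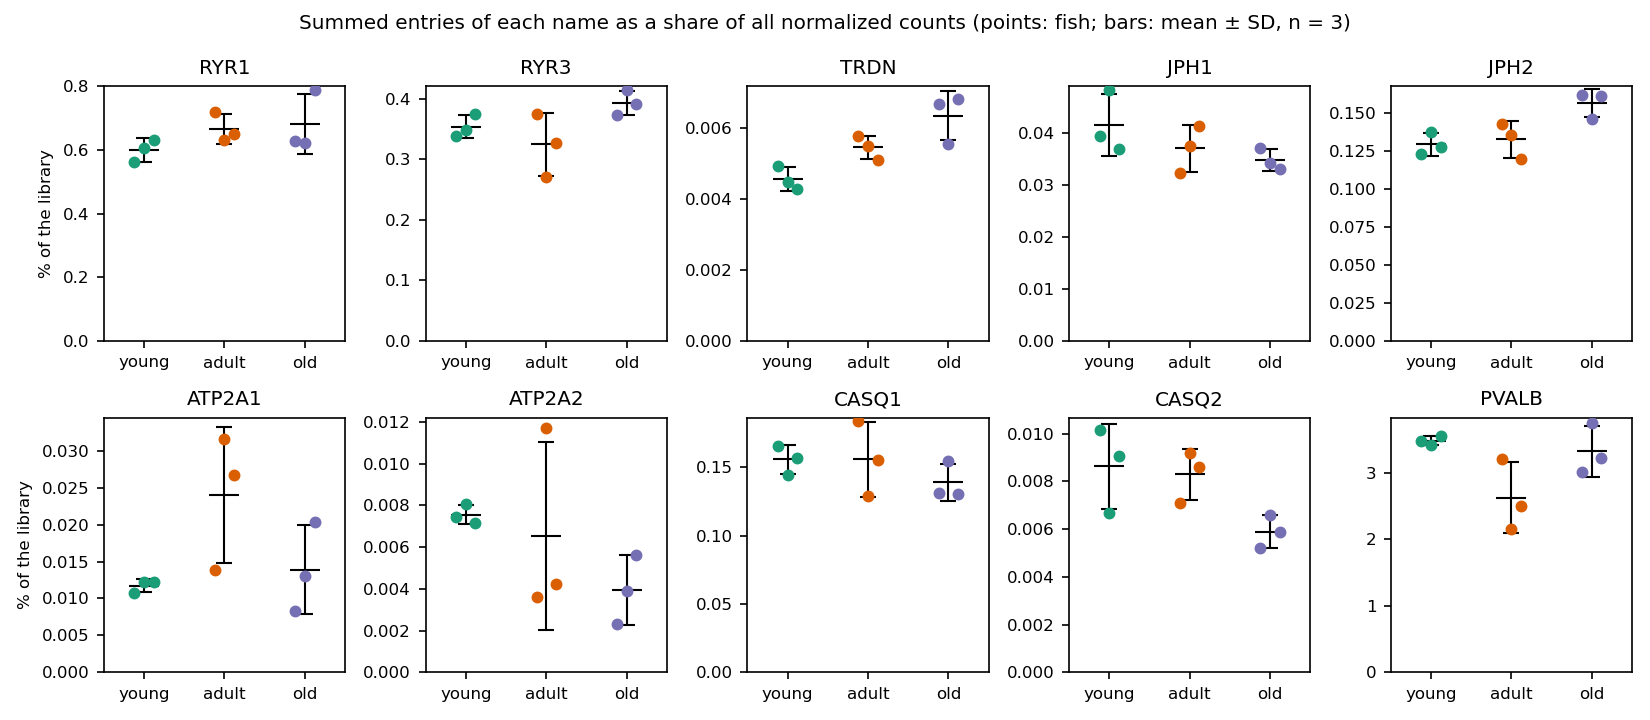
Normalized counts of all entries of a member name, summed and given as a percentage of the library, in each fish (points) with the mean and SD of 3 fish per age, on linear axes that start at 0 and differ between panels. Parvalbumin was at 2.16 to 3.75% and TRDN between 0.00427 and 0.00682%, with TRDN lowest in young fish.

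Among entries outside the member list, those most like ATP2A2 859223 over the 9 libraries were UCK2B 194985, MAN2A2 454217 and MTAP 121285, each with a Pearson r of 0.99 on the log2 scale. They were 3 of the entries that were called lower in adult and in old compared to young muscle. The entries most like PVALB4 455338 were RASA2 759392 (r = 0.98), MYOM2 447951 (r = 0.97) and USP3 856793 (r = 0.96), none of them called between ages. MYOM2 encodes a protein of the sarcomeric M-band and had its lowest value, 6361, in adult replicate 2, as PVALB4 did. The 9 libraries fall into 3 ages, so these values describe the libraries and were not tested.

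Lists of other calcium handling genes, 110 entries in all with 74 tested, were set beside the members. In adult compared to young muscle 7 were called higher (9.46%) and 10 lower (13.5%), in old compared to young 5 higher (6.76%) and 8 lower (10.8%), and in old compared to adult muscle 0 (limma). In the last comparison 17 of the 74 had an unadjusted p of at most 0.05, against 3554 of all 17454 tested entries. The shares called were within a few percentage points of those of all tested entries. Leaving out young replicate 2, adult replicate 1 or adult replicate 2 lowered the 17 calls of adult compared to young muscle to 11, and leaving out old replicate 3 raised the 13 of old compared to young to 20. In old compared to adult muscle ASPH 191746 was called without adult replicate 1 and ITPR1 70023 without old replicate 2.

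Of 12 tested entries of the voltage sensor and its partners in the transverse tubule 0 were called in adult compared to young muscle and 2 in old compared to young, CACNA2D1 122991 (an accessory subunit of the calcium channel) at 1.29 and BIN1 764 (a membrane-bending protein of the tubule) at -1.76. Both were low entries, and the call of CACNA2D1 122991 was lost, for instance, without young replicate 3 or old replicate 3. CACNA1S 919054, the sensor itself, was -0.05 and 0.29 in the comparisons with young. Under the 2-fold limit but with an adjusted p of at most 0.05 (limma) were CACNG6 900127 at 0.72 (adjusted p = 0.022) in adult and 0.92 (0.0086) in old compared to young muscle, and CACNB1 545650 at -0.49 (0.044) in adult compared to young muscle, both channel subunits. Over all tested entries 10.7% were called higher and 11.4% lower in adult, and 7.91% higher and 9.84% lower in old compared to young muscle. Among 12 tested entries of proteins that bind the ryanodine receptor, 1 was called, the calmodulin entry CALM2A 744117, which fell by 1.12 on the log2 scale in adult compared to young muscle (adjusted p = 0.0044).

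The list of IP3 receptors, the other release channels of intracellular calcium stores, and of store-operated entry included 4 of the 7 entries called higher in the adults and 4 of the 5 called higher in old compared to young muscle. ITPR1 977828 had 108, 79 and 72 normalized counts in the young, 324, 487 and 273 in the adults and 360, 328 and 274 in old fish. All young fish were below all others, with log2 fold changes of 2.03 (adjusted p = 1.5e-04) and 1.89 (adjusted p = 3.8e-04). ITPR1 70023 was called at 1.92 and 3.36 and STIM1 258956, a calcium sensor of the store, at 1.23 and 1.5. Of the 13 tested entries of IP3 receptors and store-operated entry 4 were called higher and 0 lower in each comparison with young muscle, 3 of them ITPR1 entries and 1 STIM1. The remaining ITPR1 entry of these, 917910, had 1, 3 and 0 normalized counts in the young, 11, 5 and 14 in the adults and 48, 14 and 46 in old fish. It reached the mean of 5 over the 9 libraries only through adult and old fish, so the direction of its calls was not independent of that limit. Of all tested entries 10.7% were called higher in adult and 7.91% in old compared to young muscle. ITPR1 940834 was -0.10 and -0.15, so the ITPR1 entries did not move as 1. STIM1A 821393 went the other way from STIM1 258956, at -0.51 and -0.52, and was not called (adjusted p = 0.130 and 0.129, limma).

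Calcium export across the surface membrane included 4 of the 10 entries called lower in the adults and 6 of the 8 called lower in old compared to young muscle. Of 13 tested entries 1 was called higher and 4 lower in adult compared to young, and 6 lower in old compared to young muscle. Among all tested entries 10.7% were called higher and 11.4% lower in adult, and 9.84% lower in old compared to young muscle. The most abundant entries of the list, SLC8A3 979293, ATP2B1A 678920 and ATP2B4 651995, were not called. They were at -0.16, 0.25 and -0.47 in adult and at 0.24, 0.24 and -0.15 in old compared to young muscle. The sum over the 21 entries of the list was 2225 to 2568 in the young, 1926 to 2195 in the adults and 2219 to 2623 in old fish. ATP2B3B 607146, a plasma membrane calcium pump, had 52, 181 and 122 normalized counts in the young, 4, 6 and 1 in the adults and 6, 8 and 6 in old fish, and SLC8A2B 189170, a sodium-calcium exchanger, had 18, 58 and 42 in the young, 2, 2 and 1 in the adults and 1, 3 and 0 in old fish. The buffer CALB2 585878 had 14, 50 and 37 in the young, 0, 0 and 1 in the adults and 3, 0 and 0 in old fish. Young replicate 2 was the highest fish for all 3, as it was for GFAP 140286 and NEFMA 199420, and the part of the neural markers was not tested. SLC8A2B 189170 and CALB2 585878 had means of at most 1.67 in adult and in old fish. They reached the mean of 5 over the 9 libraries only through the young fish. SLC8A1A 591081 was called higher in adult compared to young muscle at 1.42 (adjusted p = 0.0020). Another entry of that name, SLC8A1A 678208, was called lower in old compared to young muscle at -1.62 (adjusted p = 0.046, limma). In mitochondrial uptake 2 low MICU3 entries of 9 tested were called higher in adult compared to young muscle, 112391 at 1.27 and MICU3A 896348 at 2.00, and 0 in the other comparisons. The call of MICU3 112391 was lost without young replicate 2 or any one of the adult fish, while that of MICU3A 896348 was kept.

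RYR2, the release channel of the heart in mammals, is not among the members and was uneven between fish. Its 11 entries summed to 587 and 663 normalized counts in young replicates 1 and 2 and 840 in old replicate 3, against 93 in young replicate 3 and 6 to 21 in the 3 adult and the other 2 old fish. The 6 tested entries moved together over the libraries. Of these 4 were called lower in adult compared to young muscle and 0 in old compared to young. Among all tested entries 11.4% and 9.84% were called lower in these comparisons. The 4 called entries had means of 0.33 to 3.33 in adult fish, below the mean required for testing. They reached that limit only through the young fish and old replicate 3, so the direction of their calls was not independent of it. Leaving out old replicate 3 brought all 6 tested entries to a call in old compared to young muscle. The 4 RYR2 calls of adult compared to young muscle were among the 6 lost without young replicate 2, adult replicate 1 or adult replicate 2.

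**Figure D5:**
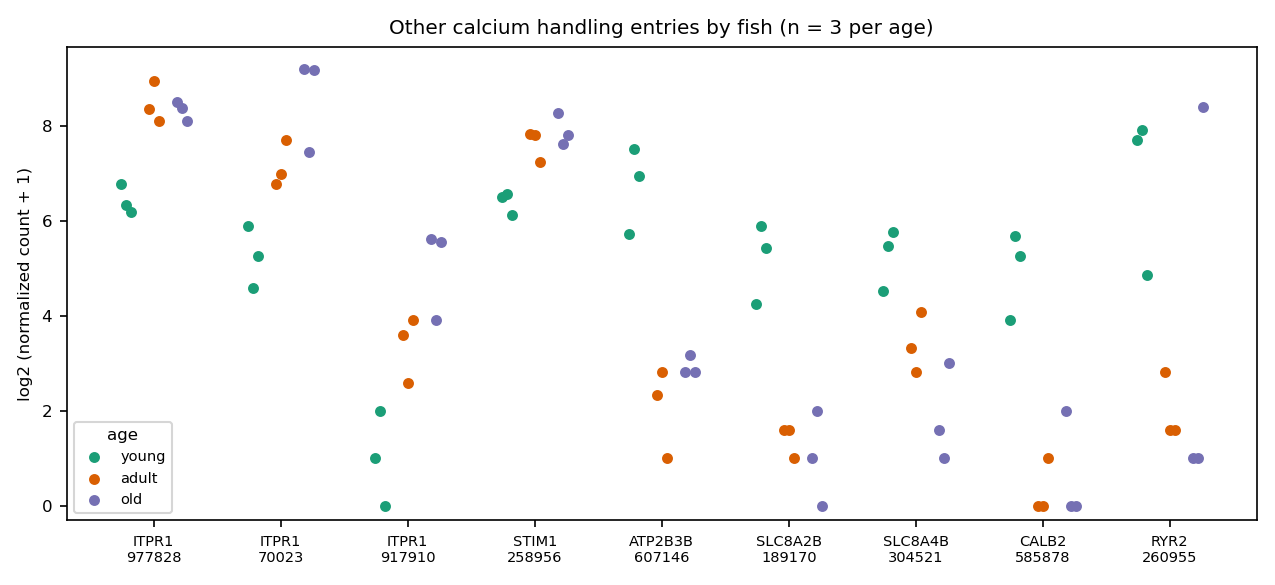
Log2(normalized count + 1) of 9 calcium handling entries outside the member list in each fish (points, coloured by age, n = 3 per age). ITPR1 and STIM1 entries are lower in young fish, ATP2B3B 607146, SLC8A2B 189170, SLC8A4B 304521 and CALB2 585878 are higher in young fish, and RYR2 260955 is high in 2 young fish (206 and 239) and 1 old fish (335).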

How the data were processed

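Total RNA of whole skeletal muscle from 9 fish, 3 per age, had been sequenced as stranded libraries. According to the methods and the labels, the authors trimmed reads (Trimmomatic 0.33), aligned them to genome version NotFur1 (STAR 2.4.2a) and counted them per gene (featureCounts 1.4.5-p1), leaving out reads that fit several genes or regions, so that near-identical copies are undercounted. The deposited values are a signal, counts divided by 1 factor per library and rounded; the step of normalization is not described beyond the program name DESeq. Rounding left 61.2 to 99.8% of values traceable to 1 read number, so no count model was used, and 0 columns were left out.

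The 17454 entries whose mean reached 5 were fitted as log2(value + 1) with limma 3.58.1 in R 4.3.3, 1 mean per age in 1 fit of 9 libraries, eBayes with a trend, and Benjamini-Hochberg adjustment per comparison. The limits of 2-fold, 0.05 and a mean of 5 are those of the study. The procedure was tested on simulated data. Figures used Python 3.11.15 and matplotlib 3.10.9.

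Members and gene lists were chosen with earlier results of these data known. Named are all members, with the 9 values of called entries, of the most abundant entry of each name and of 3 PVALB entries; of other calcium handling genes at most the 3 called entries with the smallest p in a list and comparison; and for 2 members the 3 entries most alike. Further entries were named after seeing values. S100A1 is on 2 lists. Lists of fast fibre, leukocyte, vessel, fibroblast, adipocyte, skin, cartilage and blood markers were counted as well. Of the member entry numbers 0 were found among RefSeq gene identifiers (assembly NfurGRZ-RIMD1), so neither sequences nor positions are given. Alternatives covered scaling, filter, added constant, test, block and each library left out. Some single genes are not reported here.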

Additional observations from a re-analysis of the deposited data

How the results depend on the processing

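Over 21 alternatives 0 named member values changed sign where called, and the counts were small. For members called in adult compared to young muscle (4) the number was 7 with no filter, 0 with the treat test (against a 2-fold change) and 2 to 5 when single fish were left out. For old compared to young (2) it was 5 with no filter, 1 with a mean of at least 50, 5 with no fold limit, 0 with treat and 2 to 4 with single fish left out. For old compared to adult (1) it was 0 with treat and 1 to 2 with single fish left out. For other calcium handling entries in adult compared to young muscle (17) it was 8 with a mean of at least 50, 26 with no fold limit, 4 with treat and 11 to 20 with single fish left out. In old compared to young muscle (13) it was 4 with a mean of at least 50, 6 with treat and 10 to 20 with single fish left out, and in old compared to adult (0) it was 0 to 1. Of the single calls TRDN 593671 in old compared to young was lost under equal library totals (0.89) and under totals that left out the 20 most abundant entries (0.97), and ATP2A1 729165 with the latter at 1.00, just under the limit. The cause was not tested.

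The replicate numbers are shared between ages but did not pair the fish: same-numbered fish of different ages correlated between -0.08 and 0.11 in their deviations. With the replicate block 3, 2 and 1 member entries were called, and RYR3 502559 in adult compared to young muscle had an adjusted p of 0.0737 (limma). Depth limits the entries with few counts, where rounding and the added constant weigh most.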

Other observations

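Other marker lists differed between ages, as values only. Of 11 tested cartilage entries 5 were called lower in adult and 10 in old compared to young muscle (limma), and the sum over the list in normalized counts was 3755 to 5561 for young, 1281 to 2429 for adult and 673 to 1295 for old fish. COL9A1 925931 reached the mean of 5 over the 9 libraries only through the young fish. COL2A1A 221083, ACANB 509995, COL9A1 521372 and COL9A1 521430 had means of 0 to 3.67 in old fish, below that limit. The direction of the calls of these entries in old compared to young muscle was thus not independent of the limit. Of 8 tested leukocyte entries 2 were called higher in adult and 1 in old compared to young muscle. Of 8 fibroblast entries 2 and 3 were called lower, of 10 fast fibre entries 2 and 1 lower, of 6 vessel entries 2 and 0 higher, of 2 adipocyte entries 2 and 0 higher, of 6 skin entries 1 and 2 higher and of 3 blood entries 0 and 1 lower in the same 2 comparisons. Both tested adipocyte entries carry the name LPL, and the CIDEC and LEPA entries of that list were too low to be tested. The shares over all tested entries were 10.7% and 7.91% called higher and 11.4% and 9.84% called lower.

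The RefSeq annotation of another assembly lists fewer genes under the member names. By the same naming rule it holds 15 genes against 37 entries in the table, with 1 RYR3 gene against 9 entries, 1 RYR1 gene against 6, 2 ATP2A2 genes against 4 and 5 PVALB genes against 5 entries.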
